A study of Mus musculus with 3 samples.

Results

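Receptor genes of the C-type lectin family that encode the Dectin-type receptors of myeloid cells were followed, 9 in all: Clec4n, Clec4e, Clec4d, Clec4b1, Clec4a1, Clec4a2, Clec4a3, Clec7a and Clec12a. They were taken by name from the table of counts, which held 8 of the 9 among its 13242 genes; Clec7a, which encodes the beta-glucan receptor Dectin-1, had no row and was not analysed here. The data came from single macrophages sorted from the quadriceps of mice 1 week after surgical loss of a volume of the muscle. The injured muscles had received urinary bladder matrix (UBM, a decellularised biological scaffold), polycaprolactone (PCL, a synthetic polyester) or saline, and each treatment gave 1 droplet library, so that all 3 groups carried the injury and none was uninjured. The sources used here do not give the number, strain, sex or age of the mice behind each library. The 4374 cells carried the authors' 9 cluster names (F1, F2, FP1, R1, R2, R3, RP1, RP2 and RP3), whose letters the sources used here do not explain.

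These receptors sit in the plasma membrane of macrophages, monocytes, dendritic cells and neutrophils and bind sugars and lipids of microbes or components of dying cells. Dectin-2 (Clec4n), Mincle (Clec4e), MCL or Dectin-3 (Clec4d) and DCAR (Clec4b1) have no signalling motif of their own and signal through the adaptor FcRγ, encoded by Fcer1g, to the kinase Syk and the scaffold Card9, which leads to NF-kB and to cytokines such as interleukin-1 beta. DCIR (Clec4a2) and MICL (Clec12a) carry an inhibitory motif in their own cytoplasmic tail that recruits phosphatases such as SHP-1, the product of Ptpn6. Clec4a1 and Clec4a3 encode relatives of DCIR.

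With 1 library per treatment no difference could be tested, and a level is given as UMIs (counted molecules) per 1000000 UMIs of the library (CPM) with an exact Poisson 95% interval, or as a ratio of CPM with an exact conditional binomial 95% interval. Only counting error is covered by these intervals, which say nothing of variation between mice, cells or library preparations. The libraries held 2280 UBM cells, 341 saline cells and 1753 PCL cells with medians of 5477, 4594 and 5662 UMIs per cell; saline was the shallowest, with 1888343 UMIs in all against 14586276 in UBM and 11006118 in PCL. UBM shared 1 cell barcode with saline and 5 with PCL, and PCL and saline shared 0. All 10 macrophage markers examined were detected in each library, at summed levels of 17158 CPM in UBM, 32420 in saline and 23452 in PCL. Neutrophil markers (9 genes) summed to 116, 253 and 1676 CPM in the same order, and cluster F2, with 57087 CPM of them in its 45 PCL cells, held most of that RNA in PCL. Muscle-fibre markers (8 genes) summed to 48.3, 704 and 39.3 CPM, and globin genes (4) to 3.496, 3.177 and 209.6 CPM. No doublet caller was run.

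The receptor genes other than Clec12a and Clec7a lie in one stretch of mouse chromosome 6 (GRCm38, GENCODE M21 positions). From Clec4a1 at chr6:122921848-122934619 the order is Clec4a3, Clec4a4, Clec4b1 (chr6:123049962-123071555), Clec4a2, Clec4b2, Clec4n (chr6:123229843-123247021), Clec4d (chr6:123262111-123275265) and Clec4e (chr6:123281789-123289870, the only one of them on the minus strand). Clec4n, Clec4d and Clec4e are neighbours at one end, with transcription starts 308.0, 340.3 and 368.0 kb from that of Clec4a1. Clec12a lies 6420.8 kb from the start of Clec4a1. Libraries of this kind read the 3′ ends of transcripts, and 12.9% of the 50-base windows in the last 500 bases of Clec4b1 transcripts also occur in Clec4a2. A read from such a window does not tell these 2 genes apart, and how such reads were counted was not examined. For Clec4a2 the share was 8.96% (with Clec4a4 and Clec4b1), for Clec4n 1.47% (with Gm44147) and for the other members 0%.

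The promoters of 3 genes are shown because these had different patterns across libraries: Clec4e and Clec4d were highest in PCL and, with libraries pooled, in cluster F2, and Clec4b1 was highest in saline and, with libraries pooled, in cluster R1. Each runs from 250 bases before to 50 bases after the RefSeq start (GRCm38.p6), 5′ to 3′ along the gene's strand, at chr6:123289822-123290121 (minus strand) for Clec4e, chr6:123261857-123262156 (plus strand) for Clec4d and chr6:123049712-123050011 (plus strand) for Clec4b1. Capitals mark matches to the motifs named below.
Clec4e: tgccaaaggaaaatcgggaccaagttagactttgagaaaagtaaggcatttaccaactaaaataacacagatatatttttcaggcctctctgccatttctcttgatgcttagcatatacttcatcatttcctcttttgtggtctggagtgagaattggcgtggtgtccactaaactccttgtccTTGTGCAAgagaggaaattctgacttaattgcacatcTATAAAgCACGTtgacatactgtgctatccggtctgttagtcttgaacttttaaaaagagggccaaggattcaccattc
Clec4d: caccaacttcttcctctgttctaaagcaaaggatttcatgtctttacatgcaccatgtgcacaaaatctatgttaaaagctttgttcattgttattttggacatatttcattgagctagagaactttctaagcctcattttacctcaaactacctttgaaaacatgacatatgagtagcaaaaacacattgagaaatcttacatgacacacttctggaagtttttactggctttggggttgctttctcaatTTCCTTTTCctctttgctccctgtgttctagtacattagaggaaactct
Clec4b1: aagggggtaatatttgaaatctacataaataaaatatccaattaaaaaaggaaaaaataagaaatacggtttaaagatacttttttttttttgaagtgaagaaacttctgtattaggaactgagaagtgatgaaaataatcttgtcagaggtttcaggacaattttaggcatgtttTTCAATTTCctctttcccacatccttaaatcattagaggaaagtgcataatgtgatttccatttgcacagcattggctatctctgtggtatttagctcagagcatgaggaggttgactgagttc

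RefSeq promoters were found for 8 of the 9 genes, all but Clec4n. They were searched on both strands for 7 motifs: PU.1 (GAGGAAGT, held by 3.2% of 32851 mouse promoters of the same length), C/EBP (TTGCNNAA, 10.8%), AP-1 (TGANTCA, 7.81%), NF-kB (GGNNTTTCC, 5.82%), the hypoxia element (ACGTG, 19.6%), an interferon element (GAAANNGAA, 8.56%) and the TATA box (TATAAA, 13.6%). The Clec4e promoter held a C/EBP match at position -66 from the start, a TATA box at -29 and a hypoxia element at -22. The Clec4d promoter held an interferon element at position 2 after the start, and that of Clec4b1 one at -74. Of the promoters not printed, that of Clec4a2 held a TATA box at -161 and an AP-1 match at 32, that of Clec12a an AP-1 match at -213 and a C/EBP match at -140, and that of Clec7a a TATA box at 43, after the start. The motifs can overlap in part (PU.1 with the interferon element), and a match is a run of letters, not a measured binding site.

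Dectin-2 showed the widest range between libraries. Clec4n was at 42.0 CPM in UBM (95% interval 38.7 to 45.4, 612 UMIs), 285 CPM in saline (262 to 311, 539 UMIs) and 751 CPM in PCL (735 to 768, 8269 UMIs). The level was thus lowest in UBM and highest in PCL, and the 3 intervals did not overlap. UBM was 6.80-fold below saline (6.05 to 7.65), PCL 2.63-fold above saline (2.41 to 2.88) and PCL 17.9-fold above UBM (16.5 to 19.5). At least 1 Clec4n UMI was found in 12.9% of UBM cells, 41.9% of saline cells and 81.6% of PCL cells. With every cell reduced at random to 2500 UMIs and 395 shallower cells left out (162 UBM, 79 saline and 154 PCL), these shares were 6.99%, 35.5% and 65.98%. The order was the same at equal depth.

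Mincle and its partner MCL were also highest in PCL, but they differed in where UBM stood. Clec4e was at 31.5 CPM in UBM (28.7 to 34.6), 84.7 CPM in saline (72.1 to 98.9) and 288 CPM in PCL (278 to 298). It followed the order of Clec4n, 2.69-fold lower in UBM than in saline (2.23 to 3.22), 3.40-fold higher in PCL than in saline (2.90 to 4.01) and 9.13-fold higher in PCL than in UBM (8.27 to 10.1). Clec4d was at 115 CPM in UBM (109 to 121), 106 CPM in saline (91.7 to 122) and 439 CPM in PCL (427 to 452). UBM and saline could not be told apart for Clec4d by counting error (ratio 1.08, interval 0.936 to 1.26), whereas PCL was 4.15-fold above saline (3.598 to 4.799) and 3.82-fold above UBM (3.61 to 4.04). Thinned shares of cells with a UMI were 6.61%, 16.0% and 40.4% for Clec4e, and 23.3%, 19.1% and 60.1% for Clec4d, in the order UBM, saline and PCL. The single cell with most UMIs of any member in any library held at most 6.5% of them.

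Clec4b1, which encodes DCAR and uses the same adaptor, did not share this order. It was at 59.9 CPM in UBM (55.9 to 64.0), 144 CPM in saline (127 to 162) and 57.1 CPM in PCL (52.7 to 61.7). Saline was the highest library, 2.40-fold above UBM (2.08 to 2.75) and 2.52-fold above PCL (2.17 to 2.90), and the intervals of UBM and PCL overlapped. When clusters FP1 and RP3, the only ones with at least 50 cells in both libraries, were given equal weight, the log2 ratio of UBM to saline after adding 10 CPM was 0.059 in place of -1.14. Cluster by cluster, UBM was below saline in 5 of the 6 clusters with at least 20 cells of both libraries, with 2 intervals below 1, in F1 (ratio 0.340, 0.205 to 0.544) and in R1 (0.550, 0.451 to 0.675), and neither of these entered that average. RP3 went the other way, at a ratio of 1.85 (0.910 to 4.23). Between PCL and saline, with F1, FP1 and RP3 given equal weight, it was -0.58 in place of -1.19.

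Among the inhibitory receptors and their relatives the differences were smaller. DCIR (Clec4a2) was at 233 CPM in UBM (225 to 241), 362 CPM in saline (336 to 390) and 423 CPM in PCL (411 to 436), lowest in UBM and highest in PCL without overlap of the intervals. Clec4a1 was at 210 CPM in UBM, 316 in saline and 349 in PCL, and Clec4a3 at 207, 325 and 327 CPM; for both, UBM was the lowest library and saline and PCL had overlapping intervals. MICL (Clec12a) was at 143 CPM in UBM (137 to 149), 246 CPM in saline (224 to 270) and 137 CPM in PCL (130 to 144). Saline was thus the highest for Clec12a, 1.72-fold above UBM (1.56 to 1.91) and 1.80-fold above PCL (1.617 to 1.997), while UBM and PCL overlapped.

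**Figure D1:**
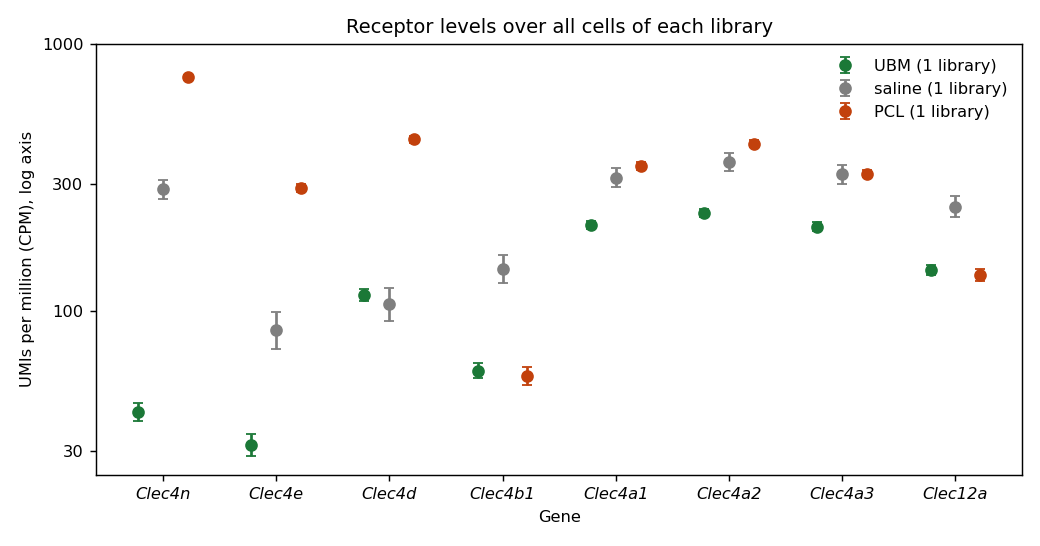
Level of each of the 8 measured receptor genes in CPM (log axis) over all cells of the UBM, saline and PCL libraries; points are the 1 library of each treatment and bars are exact Poisson 95% intervals. Clec4n, Clec4e and Clec4d are highest in PCL, Clec4b1 and Clec12a are highest in saline, and Clec4n spans 42.0 to 751 CPM.

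The members were counted by a rule of size, at least 2-fold apart after adding 10 CPM to both libraries, among genes with at least 10 CPM in either; all 8 measured members passed that minimum in every pair. Between UBM and saline, 3 members were at least 2-fold lower in UBM (Clec4n, Clec4e and Clec4b1), where 3.52% of 7296 genes were, and 0 were higher, where 2.01% were. Between PCL and saline, 3 were higher in PCL (Clec4n, Clec4e and Clec4d), where 2.3% of 7389 genes were, and 1 was lower (Clec4b1), where 2.19% were. Between PCL and UBM, the same 3 as against saline were higher in PCL, where 3.28% of 7200 genes were, and 0 were lower, where 1.61% were. The median log2 ratio of the 8 members was -0.68 for UBM against saline, 0.18 for PCL against saline and 0.77 for PCL against UBM, beside medians of -0.07, 0.04 and 0.11 over all genes counted. Scaling by the trimmed mean of M values (TMM) moved the median of all genes between UBM and saline by 0.11, to 0.04, and that of the members to -0.55. It moved the split of all genes past 2-fold between PCL and UBM from 236 higher and 116 lower to 194 higher and 159 lower. Each library enters 2 of the 3 pairs, so the pairs are not independent of each other.

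Set out along chromosome 6, the genes past 2-fold in PCL were the 3 neighbours at the Clec4e end of the cluster, Clec4n, Clec4d and Clec4e, with log2 ratios to UBM of 3.87, 1.85 and 2.84. At the other end the ratios to UBM were 0.71 for Clec4a1 and 0.63 for Clec4a3, and between them Clec4b1 was at -0.06 and Clec4a2 at 0.83. Against saline, Clec4n, Clec4d and Clec4e were at 1.37, 1.95 and 1.65 in PCL, and Clec4a1, Clec4a3 and Clec4a2 lay between 0.01 and 0.22. The distant Clec12a was at -0.80 against saline and -0.06 against UBM.

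**Figure D2:**
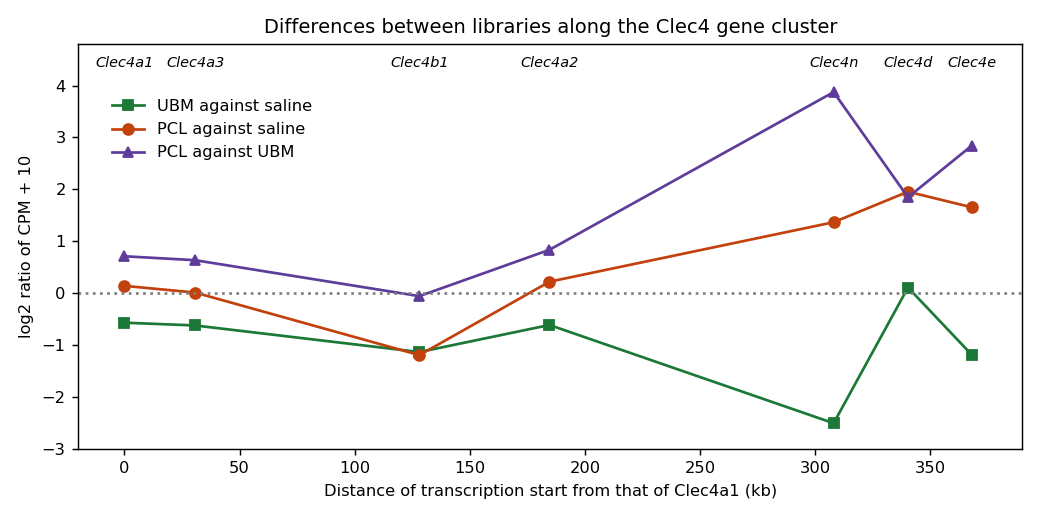
Log2 ratio of CPM + 10 (y axis) for the 7 measured genes of the Clec4 gene cluster against the distance of each transcription start from that of Clec4a1 in kb (x axis), for UBM against saline, PCL against saline and PCL against UBM; each point is a ratio of 2 single libraries and lines join points of 1 comparison. The 3 genes on the right, Clec4n, Clec4d and Clec4e, are the ones more than 1 log2 unit higher in PCL than in either other library.

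The libraries differed in which clusters their cells fell into: FP1 held 59.1% of PCL cells, 21.1% of saline cells and 4.34% of UBM cells, and RP1 and RP2 held 25.2% and 28.1% of UBM cells but 2.11% and 3.31% of PCL cells. Levels were therefore also compared within clusters. Clec4n, Clec4e and Clec4d were each higher in PCL than in UBM in 5 of the 5 clusters that had at least 20 cells of both libraries, and each of those intervals lay above 1. For Clec4n the ratio ran from 4.23 in RP3 to 53.4 in RP1, for Clec4e from 1.94 in RP2 to 4.59 in F1, and for Clec4d from 2.27 in RP2 to 11.6 in RP3. In FP1, Clec4n was at 26.5 CPM in 99 UBM cells, 342 CPM in 72 saline cells and 833 CPM in 1036 PCL cells. In RP1, it was at 13.1 CPM in 574 UBM cells (9.12 to 18.2) and 699 CPM in 37 PCL cells (593 to 818). One of these PCL cells held 47 of their 155 Clec4n UMIs. Without the cell with most Clec4n UMIs in each library, RP1 was at 9.74 CPM in UBM and 521 CPM in PCL. The ratio was then 53.4 (34.6 to 85.5). With FP1, RP2 and RP3 given equal weight, the log2 ratio of PCL to UBM was 3.25 for Clec4n (3.87 over all cells) and 1.52 for Clec4e (2.84 over all cells). The difference between PCL and UBM in these 3 genes was thus present among cells that the authors placed in the same cluster. Such cells were not always alike in the 10 macrophage markers. These summed to 7531 CPM in UBM and 21116.5 in PCL within RP1, to 11091 and 22611 within FP1, and to 15989 and 28990 within RP2. Within F1 they summed to 22475 and 24297 CPM, and within RP3 to 29876 and 28664. The part of macrophage content in the receptor differences was not tested.

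Against saline, PCL was higher within 4 of 4 clusters for each of the 3 genes, although 1 of 4 intervals included 1 for Clec4n (RP2, ratio 1.20, 0.860 to 1.68) and for Clec4e (RP3, ratio 1.27, 0.641 to 2.71). The Clec4e interval in RP2 (1.01 to 12.1) rested on 4 saline UMIs. It included 1 without the cell with most Clec4e UMIs in each library (0.981 to 18.1). Clec4d ratios ran from 2.14 in FP1 to 12.3 in RP3, where it was at 22.3 CPM in saline (6 UMIs) and 276 CPM in PCL. Clec4n was lower in UBM than in saline within 6 of 6 clusters, with 5 intervals below 1; the widest gap was in RP2, with 11.9 CPM in UBM and 271 CPM in saline, and the interval that included 1 was in R1, with 32.2 and 38.2 CPM. One of the 38 saline RP2 cells held 20 of their 56 Clec4n UMIs. Without the cell with most Clec4n UMIs in each library, RP2 was at 10.3 CPM in UBM and 185.6 CPM in saline, a ratio of 0.0556 (0.0345 to 0.0897), and the ratio of PCL to saline there was 1.55 (1.05 to 2.35), no longer including 1. Clec4e was lower in UBM in 5 of 6 clusters, with 3 intervals below 1 (R1, R3 and RP3), of which that of RP3 rested on 12 saline UMIs and included 1 without the top cells (0.205 to 1.402). Clec4d was lower in UBM in 2 of 6 clusters, with 1 interval below 1 (FP1) and 1 above (F1), and a further one above without the top cells (R1, 1.16 to 11.4). With FP1 and RP3 given equal weight, the log2 ratio of UBM to saline was -1.91 for Clec4n (-2.51 over all cells), -0.33 for Clec4e (-1.19) and -0.95 for Clec4d (0.11), so that the direction of Clec4d reversed. Levels were averaged before this ratio was taken, so FP1, with the higher Clec4d level, weighed more in it. The Clec4d log2 ratio was -1.15 within FP1 and 0.06 within RP3. For Clec4d the clusters went in opposite directions, from 3.39-fold higher in UBM within F1 (1.52 to 8.29) to 2.33-fold lower within FP1 (1.75 to 3.11). Clec12a was lower in PCL than in saline in 4 of 4 clusters, by 1.39-fold to 2.51-fold, with 3 of the intervals below 1. It was lower in UBM than in saline in 5 of 6 clusters, with 3 intervals below 1 and 1 above (R1, 1.24 to 2.58). Between PCL and UBM, 2 of its 5 intervals lay below 1 (FP1, 0.578 to 0.810, and RP2, 0.530 to 0.900). One lay above, in RP1, at a ratio of 4.14 (2.70 to 6.21), or 2.87 (1.67 to 4.70) without the top cells.

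Counted by the same rule of size within the clusters that had at least 50 cells of both libraries, PCL against UBM gave 4 members higher in FP1 (Clec4n, Clec4e, Clec4d and Clec4a1), where 3.19% of genes were, 2 in RP2 (Clec4n and Clec4d; 2.94%) and 3 in RP3 (Clec4n, Clec4e and Clec4d; 3.85%). None of the 8 was lower there, where 2.41%, 2.65% and 1.15% of genes were. PCL against saline gave 3 higher in F1 (4.44% of genes) and 3 in FP1 (2.69%), in both the same 3 genes, and 2 in RP3 (Clec4n and Clec4d; 6.47%). One member was lower in F1 (Clec12a; 2.67% of genes), 1 in FP1 (Clec4b1; 1.6%) and 0 in RP3 (4.14%). UBM against saline gave 3 lower in FP1 (Clec4n, Clec4d and Clec4a1; 4.01% of genes) and 0 in RP3 (6.12%), and 0 higher in either, where 3.33% and 4.12% of genes were.

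**Figure D3:**
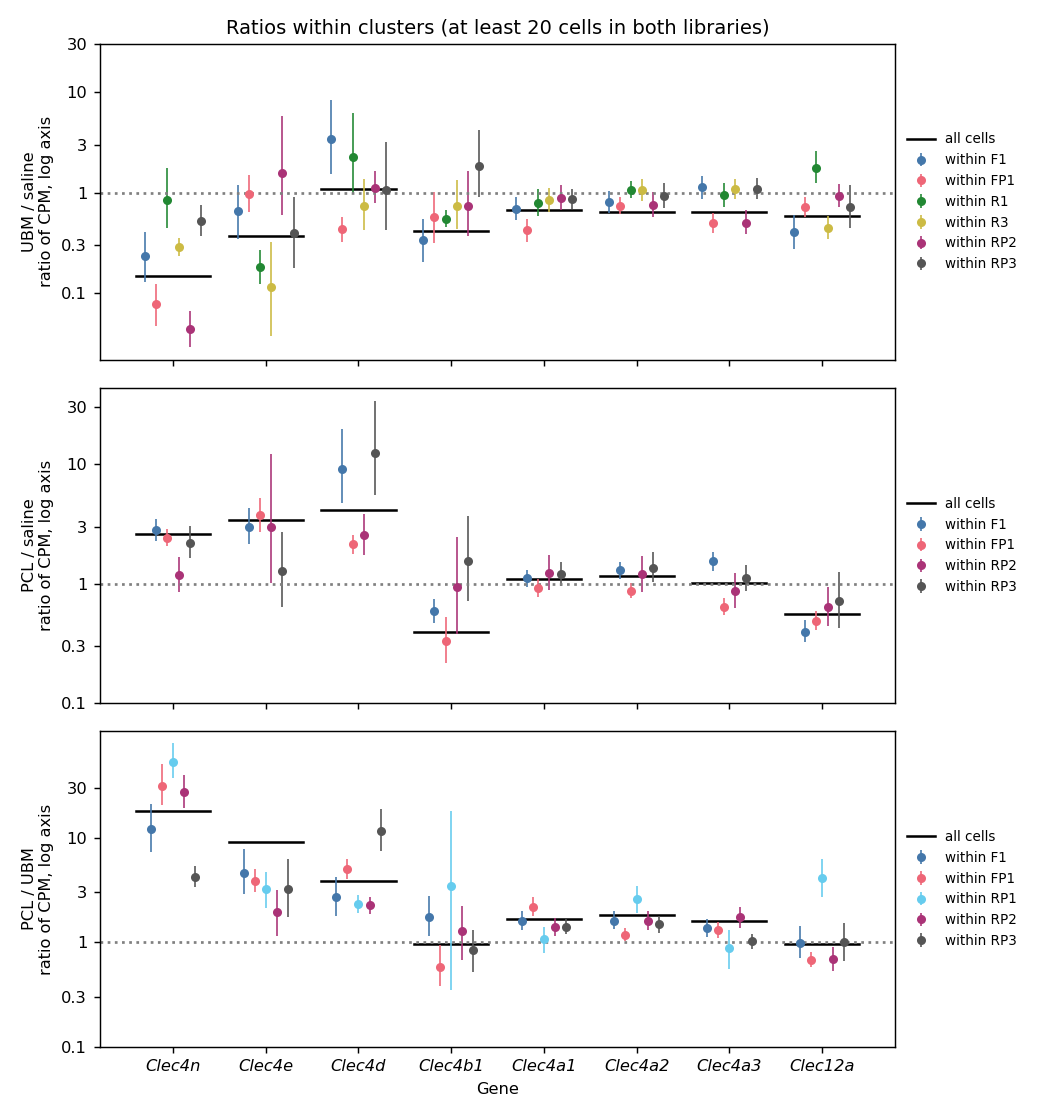
Ratio of CPM between 2 libraries (log axis) for each receptor gene, with UBM against saline above, PCL against saline in the middle and PCL against UBM below; points are clusters that had at least 20 cells of both libraries, bars are exact conditional binomial 95% intervals and the black line is the ratio over all cells. In the lower panel every point of Clec4n, Clec4e and Clec4d lies above 1, and those of Clec4n reach from 4.23 to 53.4.

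Markers of other cells were examined beside these results. Without cluster F2 the neutrophil markers summed to 97.6 CPM in UBM, 82.5 in saline and 399 in PCL, and the log2 ratios of PCL to saline were 1.37 for Clec4n, 1.60 for Clec4e and 1.93 for Clec4d, against 1.37, 1.65 and 1.95 with it. Within FP1 the 9 neutrophil markers summed to 295 CPM in UBM, 119 in saline and 414 in PCL. Ly6g was at 0 there in all 3 libraries, and Retnlg and Cxcr2 were at 0 in UBM and saline but not in PCL. The gap between UBM and PCL was wider in the other clusters compared. These markers summed to 147 CPM in UBM and 622 in PCL within RP1, and to 85.5 and 562 within RP3. Within F1 they summed to 90.5 and 341 CPM, and within RP2 to 69.8 and 240. The part of neutrophil RNA in the differences within clusters was not tested. Monocyte markers (7 genes) summed to 558 CPM in UBM, 1001 in saline and 1401 in PCL over all cells, and to 253, 465 and 737 CPM within FP1. Clec4n had the same order of libraries, and the part of monocyte content in its differences was not tested.

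Over the clusters, with libraries pooled, the receptors fell into different places. The clusters were made by the authors from these same cells and genes, so these levels are a description. Pooled levels also carry the mix of libraries in a cluster. From PCL came 1036 of the 1207 FP1 cells, 455 of the 562 F1 cells and 45 of the 56 F2 cells. From UBM came 574 of the 624 RP1 cells and 640 of the 736 RP2 cells. Pooled, Clec4n was highest in FP1 (720 CPM), F2 (641) and F1 (599), of which neighbours in the order had overlapping intervals, followed by R3 (257) and RP3 (219), which also overlapped. RP1 (68.4), R1 (65.9), RP2 (48.1) and R2 (33.3) were lowest. Within libraries the order differed: R3 was highest in UBM (178 CPM) and in saline (618), and FP1 stood at 26.5 CPM in UBM. In PCL, RP1 reached 699 CPM, or 521 CPM without its cell with most Clec4n UMIs. Clec4e and Clec4d were both highest in F2, at 737 and 820 CPM, the small cluster rich in neutrophil markers. FP1 came next for both, at 269 CPM for Clec4e, which overlapped F1 (261), and at 473 CPM for Clec4d, which overlapped no other cluster. Clec4d was next highest in RP1, at 256 CPM. Within RP1, Clec4d and Clec4n were both high in PCL, at 546 and 699 CPM. In UBM RP1, Clec4d was at 233 CPM and Clec4n at 13.1 CPM. Clec4e was at 153 CPM in PCL RP1 and 47.9 CPM in UBM RP1. Within libraries, Clec4e was highest in FP1 in UBM (79.4 CPM), in R1 in saline (167) and in F2 in PCL (822). Clec4d was highest in RP1 in UBM (233 CPM), in FP1 in saline (250) and in F2 in PCL (915). F2 held only 8 UBM and 3 saline cells, too few for a level there. RP1 and RP2 supplied 37.2% and 41.5% of the Clec4d UMIs of the UBM library but 5.72% and 7.52% of its Clec4n UMIs, respectively.

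Clec4b1 marked other clusters. It was at 252 CPM in R1 and 149 CPM in F1, at 54.4 CPM or less in RP3, R3, F2, RP2 and FP1, and at 3.08 CPM in RP1 and 2.31 CPM in R2. R1 held 64.0% of the Clec4b1 UMIs of the UBM library with 12.7% of its cells, and F1 held 66.1% of those of PCL with 25.96% of its cells. Dendritic cell markers were most abundant in R1 (6 of the 8 listed were in the table), at 215 CPM in UBM and 673 CPM in saline, followed by RP3 in UBM (182 CPM) and R3 in saline (122 CPM); Clec4b1 in R1 was at 231 CPM in UBM and 420 CPM in saline. Of the 6, Flt3, Clec9a and Ccr7 were at 0 in the 46 saline R1 cells and Ccr7 alone in the 289 UBM R1 cells. T and NK cell markers (4 of the 7 listed were in the table) summed to 208 CPM in UBM R1. The part of these cells in the Clec4b1 level was not tested.

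With libraries pooled, Clec4a1, Clec4a2 and Clec4a3 were each highest in F1, at 518, 591 and 537 CPM. The same held within PCL, whereas Clec4a2 was highest in R1 in UBM (440 CPM) and Clec4a3 in R3 in saline (378 CPM). Their lowest clusters when pooled were R1 for Clec4a1 (152 CPM) and RP1 for Clec4a2 (110) and Clec4a3 (129); within UBM that of Clec4a1 was FP1 (121 CPM). Pooled, Clec12a was highest in RP2 (255 CPM), with R1, R3, FP1, F1 and F2 between 186 and 148 CPM and each overlapping its neighbour in the order. It was at 70.9 CPM in RP3, 45.5 in RP1 and 5.55 in R2, where 12 UMIs were found in 254 cells of median depth 8365 UMIs. Within libraries, RP2 was highest for Clec12a in UBM (260 CPM) and in PCL (181). In saline, R3 (333 CPM), F1 (330) and FP1 (293) stood above RP2 (281), with intervals that overlapped that of RP2. R2, whose cells all came from the UBM library, was also the lowest cluster when pooled for Clec4n, Clec4d and Clec4b1. Its intervals overlapped those of RP2 for Clec4n and RP1 for Clec4b1. Within UBM, R2 was still lowest for Clec4d and Clec4b1 but not for Clec4n. Clec4n there was at 33.3 CPM in R2, above FP1 (26.5), RP1 (13.1) and RP2 (11.9). The UBM intervals of RP1 and RP2 lay below that of R2, and that of FP1 overlapped it.

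**Figure D4:**
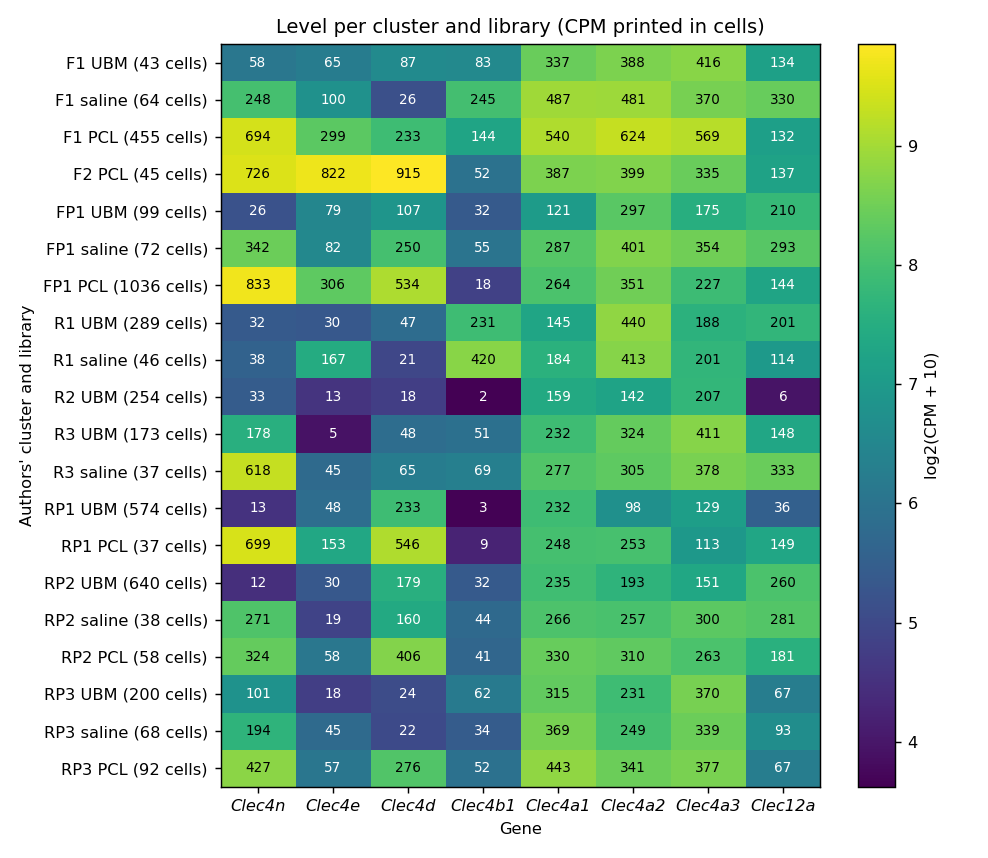
Level of each receptor gene (columns) in each of the authors' clusters and libraries with at least 20 cells (rows); the colour is log2(CPM + 10) and the printed number is the CPM. Clec4n is bright in all PCL rows, Clec4e and Clec4d are brightest in F2 PCL, and Clec4b1 is brightest in R1 saline, followed by F1 saline and R1 UBM.

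Within a library, the span over clusters differed between genes. In PCL, Clec4n ran from 324 CPM in RP2 to 833 CPM in FP1, a 2.57-fold span over 6 clusters, whereas in UBM it ran from 11.9 CPM in RP2 to 178 CPM in R3, a 15.0-fold span over 8 clusters. Clec4d spanned 3.93-fold in PCL (233 CPM in F1 to 915 in F2) and 13.3-fold in UBM (17.6 CPM in R2 to 233 in RP1). Clec4e spanned 14.5-fold in PCL and 15.6-fold in UBM. For Clec4n and Clec4d the clusters of PCL thus lay closer to each other than those of UBM did, over different sets of clusters, and this difference in span was not tested. Clec4a1 spanned 2.18-fold to 2.78-fold in each of the 3 libraries.

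Counts per cell were compared in FP1 after thinning to 2500 UMIs. At least 1 Clec4n UMI was found in 10.1% of 89 UBM cells (exact Clopper-Pearson 95% interval 4.73 to 18.3), 40.7% of 59 saline cells (28.1 to 54.3) and 66.7% of 946 PCL cells (63.6 to 69.7). At least 5 UMIs were found in 0 of 89 UBM cells, which allows a share of up to 3.37%, in 3.39% of saline cells and in 15.6% of PCL cells. Both the share of cells with the transcript and the number of transcripts in a cell were therefore highest in PCL. The cells are all labelled macrophages, so no cluster that should lack the gene was at hand; the lowest thinned share of cells with a Clec4n UMI was 2.60% in UBM RP1 (500 cells, median depth 4250 UMIs), against a median depth of 5530 UMIs in PCL FP1. For Clec4e the FP1 shares were 16.9% in UBM, 13.6% in saline and 42.1% in PCL, and for Clec4d 31.5%, 45.8% and 69.5%.

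**Figure D5:**
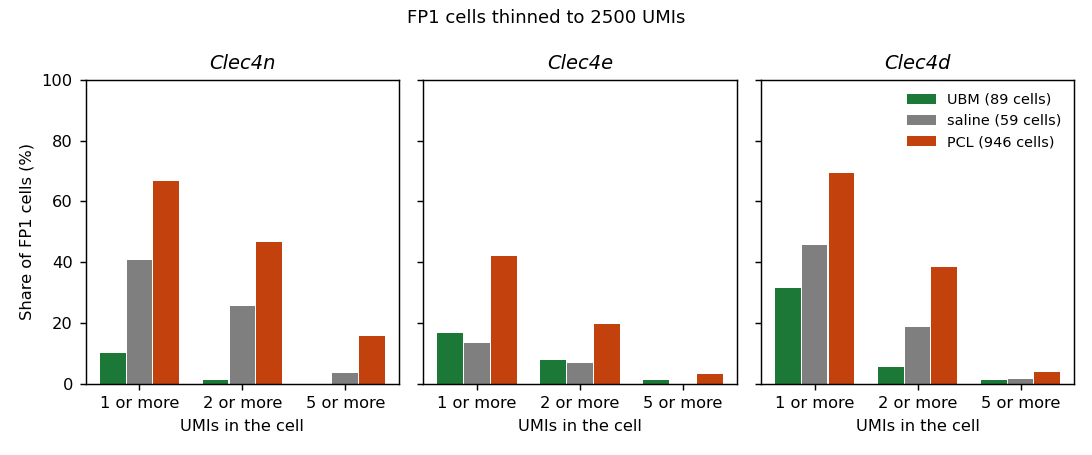
Share of FP1 cells (y axis, %) with at least 1, 2 or 5 UMIs of Clec4n, Clec4e or Clec4d after thinning each cell to 2500 UMIs, with 89 UBM, 59 saline and 946 PCL cells; bars are shares of cells of 1 library. PCL has the highest share at each step, and no UBM cell has 5 or more Clec4n UMIs.

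Detection of one receptor was compared between cells with and without another, for 3 pairs of genes, in FP1 and F1 of PCL and in RP1 and RP2 of UBM. In FP1, Clec4e was detected in 48.5% of the 631 thinned cells with a Clec4n UMI (44.5 to 52.5) and in 29.2% of the 315 without one (24.2 to 34.6). Clec4d was detected in 72.7% (69.1 to 76.2) and 62.9% (57.3 to 68.2) of the same cells. For Clec4e among cells with and without a Clec4d UMI the FP1 shares were 44.7% (40.9 to 48.6) and 36.0% (30.4 to 41.8), whose intervals overlapped. In F1 the shares for Clec4e by Clec4n were 48.9% (43.1 to 54.6) and 37.7% (29.1 to 46.9), those for Clec4d by Clec4n 44.3% (38.7 to 50.1) and 36.1% (27.6 to 45.3), and those for Clec4e by Clec4d 47.2% (39.8 to 54.8) and 44.6% (38.3 to 51.0); the intervals overlapped for all 3 pairs. In UBM RP1 the shares for Clec4e by Clec4d were 14.6% (9.84 to 20.5) and 6.35% (3.92 to 9.64), whose intervals did not overlap. In UBM RP2 they were 7.48% (4.33 to 11.9) and 5.29% (3.30 to 7.97), with overlap. Clec4n was found in only 13 RP1 and 18 RP2 cells there, and the intervals of its pairs overlapped. Each comparison is among cells of 1 library, and doublets, which could put transcripts together, were not removed.

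Likeness between genes was described by the Pearson correlation of log2(CPM + 10) over the 9 clusters, which share 3 libraries. Among the 8 members it was highest between Clec4b1 and Clec4a2 (0.88), the pair with shared 3′ sequence, and between Clec4e and Clec4d (0.84), the Mincle and MCL pair. Over 14 groups of 1 cluster in 1 library, each with at least 50 cells, these were 0.84 and 0.60. Clec4n stood at 0.76 with Clec4e, 0.74 with Clec4a1, 0.70 with Clec4a3, 0.67 with Clec4a2 and 0.65 with Clec4d. Over the 14 groups, the member most like Clec4n was Clec4a3 (0.78), and Clec4n stood at 0.58 with Clec4e and 0.35 with Clec4d. Over the 9 clusters, Clec4d stood at -0.01 with Clec4b1. Of 3480 genes with at least 50 CPM in 1 cluster, those most like Clec4n were Ncor1 (0.98), Tlr2, a receptor for bacterial lipoproteins (0.96), Abi1 (0.95), Tnfrsf1b, a tumour necrosis factor receptor (0.94), and AY036118 (0.93). Over the 14 groups these genes stood, in the same order, at 0.65, 0.93, 0.78, 0.88 and 0.43. The gene most like Clec4e was Hp, which encodes haptoglobin (0.99), and that most like Clec4d was Pik3r5 (0.93). Over the 14 groups, Hp stood at 0.80 with Clec4e and Pik3r5 at 0.90 with Clec4d. Those most like Clec4b1 over the clusters were Cnn2 (0.93), Dock8 (0.90), Gadd45b (0.90), H2-DMb1 (0.89) and Clec4a2. Clec12a was most like Cd300lb (0.96), Clec4a1 most like Pttg1 (0.95) and Clec4a2 most like Actr3 (0.97).

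The adaptors and the kinase Syk that the activating receptors share stood within 2-fold in every pair of libraries. Fcer1g, the FcRγ adaptor of the 4 activating receptors, was at 2681 CPM in UBM, 3052 in saline and 3242 in PCL, and the related adaptor Tyrobp at 2382, 2348 and 2331 CPM. Syk was at 78.7, 120 and 83.1 CPM and Card9 at 5.76, 6.35 and 6.91 CPM, below the minimum. Ptpn6, which encodes the phosphatase SHP-1, was at 82.7 CPM in UBM, 163 in saline and 205 in PCL, 2.48-fold higher in PCL than in UBM (2.31 to 2.67). Of the 30 listed partners, 28 passed the minimum: 0 were higher and 3 lower in UBM than in saline, 0 were higher and 0 lower in PCL than in saline, and 4 were higher and 1 lower in PCL than in UBM, with medians of -0.30, -0.02 and 0.33 beside -0.07, 0.04 and 0.11 over all genes. Over all genes 2.01% were higher and 3.52% lower in UBM against saline, 2.3% and 2.19% in PCL against saline, and 3.28% and 1.61% in PCL against UBM. Over the alternative settings the partners lower in UBM than in saline ranged from 2 to 5 and those higher in PCL than in UBM from 2 to 5. Lyn, a kinase of the Src family, was among those past 2-fold, at 79.0 CPM in UBM and 200.2 CPM in PCL, and Cblb, a ubiquitin ligase, went the other way, at 36.4 and 9.54 CPM.

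Of 22 listed cytokines and other genes induced downstream, 20 were in the table. In UBM against saline 1 was higher and 7 lower of 17 over the minimum, in PCL against saline 1 was higher and 2 lower of 17, and in PCL against UBM 5 were higher and 0 lower of 15, with medians of -0.90, -0.34 and 0.33 beside the same all-gene medians and shares. Over the alternatives the genes higher in PCL against saline ranged from 0 to 2 (0 under 5 of them), those lower from 1 to 5, and those lower in UBM against saline from 6 to 10. Il1b, which encodes interleukin-1 beta, was at 104 CPM in UBM, 779 in saline and 678 in PCL, and its antagonist Il1rn at 50.1, 195 and 386 CPM. Cxcl1, a neutrophil chemokine, was highest in UBM, at 416 CPM against 124 in saline and 265 in PCL. Clec4n and Il1rn thus had the same order of libraries, and Il1b and Cxcl1 did not share it.

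Other C-type lectins went in both directions. Of 40 listed, 33 were in the table and 13 to 17 passed the minimum, with 1 higher and 3 lower in UBM against saline, 1 and 6 in PCL against saline, and 3 and 5 in PCL against UBM; the medians were -0.74, -0.80 and -0.90, beside the all-gene medians and shares given for the partners. These counts moved with the settings: over the alternatives they ran from 1 to 3 higher and 1 to 8 lower in UBM against saline, from 0 to 2 and 4 to 10 in PCL against saline, and from 1 to 4 and 4 to 8 in PCL against UBM. Clec5a, a myeloid receptor that pairs with the Tyrobp adaptor, was at 10.6 CPM in UBM, 27.5 in saline and 57.1 in PCL, in the order of Clec4n, and Olr1, a receptor for oxidised lipoprotein, was at 5.62, 5.83 and 30.2 CPM. The mannose receptor Mrc1 was at 1167 CPM in UBM and 469 CPM in saline. Mgl2, a galactose-type lectin, was at 373 CPM in UBM, 214 in saline and 28.1 in PCL, 13.3-fold lower in PCL than in UBM (11.8 to 14.9), and Clec10a, a lectin of the same type, was at 227 CPM in UBM and 74.6 in PCL. These galactose-type lectins thus had the reverse order of Clec4n between UBM and PCL.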

How the data were processed

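Raw UMI counts per gene and cell, as deposited by the authors in 1 table (whole numbers, 13242 genes in 4374 cells, per the file headers), were joined to a deposited table of each cell's condition and cluster. Condition names there (ECM, PBS, Synthetic) were matched to the labels by meaning. Per the labels' protocols the libraries were 10x 3′ v2 libraries, counted with Cell Ranger and clustered on the pooled conditions with Seurat; the submitters' processing notes give Seurat version 2 and name hg38, a human build, while the symbols in the table are mouse symbols. The sources used here do not state how cells or genes were filtered.

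UMIs were summed per library, and per cluster and library with at least 20 cells, and scaled to 1000000 (Python 3.11.15, numpy 2.4.6, pandas 2.3.3, scipy 1.17.1); 3′ UMIs were not divided by gene length. Intervals are exact 95% intervals and cover counting error only; sequencing depth sets them, from 1888343 UMIs (saline) to 14586276 (UBM). No test was run, since there was 1 library per treatment and cells are not replicates. Genes were counted by a rule of size, at least 2-fold after adding 10 CPM, where 1 of the 2 libraries reached 10 CPM; within clusters both libraries needed at least 50 cells. Named genes were all members, the 2 highest and 2 lowest of each list per pair with Fcer1g, Tyrobp, Syk, Card9 and Ptpn6, and the 5 genes most like each member over clusters, from which a part is printed; some genes that this rule names are not reported here. Members, lists and rules were chosen with earlier results of these data known. The scripts were tested on simulated data. Alternatives were TMM scaling (edgeR 4.0.16), median-of-ratios scaling, other totals, cells, clusters, pseudocounts and minima; leaving out F2 alone was chosen after seeing the data. Positions are from GENCODE M21 and promoters from RefSeq on GRCm38.p6.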

Additional observations from a re-analysis of the deposited data

Results flagged for a closer look

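Clec4a3 went in opposite directions between PCL and saline in 2 clusters. Within F1 it was at 370 CPM in saline (95% interval 309 to 440) and 569 CPM in PCL (542 to 597), a ratio of 1.54 (1.29 to 1.85). Within FP1 it was at 354 CPM in saline (303 to 411) and 227 CPM in PCL (215 to 239), a ratio of 0.640 (0.547 to 0.754). Over all cells the ratio was 1.01 (0.924 to 1.10). The difference between the clusters was not tested, since each condition is 1 library.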

How the results depend on the processing

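The direction of Clec4n, Clec4e and Clec4d in PCL against saline and in PCL against UBM held under all 10 alternatives run for the log2 ratios, with ranges of 1.26 to 1.65 and 3.25 to 4.34 for Clec4n, 1.34 to 1.75 and 1.52 to 3.15 for Clec4e, and 1.71 to 2.11 and 1.66 to 1.93 for Clec4d. Equal weight for each cluster with at least 50 cells in both libraries left 1 member, Clec4n (-1.91), at least 2-fold lower in UBM against saline, in place of 3. Over all genes 231 of 7515 were lower, in place of 257 of 7296. Equal weight also turned the log2 ratio of Clec4b1 from -1.14 to 0.059, and only FP1 and RP3 enter that average. Without cells over 10% mitochondrial UMIs, 1 member was at least 2-fold lower in UBM against saline within RP3, in place of 0. With those cells kept, 6.12% of genes were lower there. The causes were not tested. Of 72 values for the counts of members over all cells, 71 stayed within 1.5 times the main count. That measure is loose for counts this small, since a fall from 3 to 2 still counts as within 1.5 times. A count also does not say which genes: with equal weight the 1 member lower in PCL against saline was Clec12a (-1.002) in place of Clec4b1 (-0.575). Leaving out the top cell of the gene in each library, an alternative added after the data were seen, moved 4 of the 120 ratios within clusters by over 1.5 times and changed whether the interval included 1 for 7. No paired analysis was possible because each treatment has 1 library and the labels give no replicate numbers. With 1 library per treatment, differences between mice and between library preparations cannot be told apart from treatment; the 341 saline cells limit the precision of both comparisons with saline.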
